A study of Mus musculus with 2 samples.

Results

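Ion channels and ion pumps that set the electrical excitability of adrenal cells were examined in whole adrenal glands of young mice. The set holds 44 genes, taken by symbol from a given list, out of 55536 annotated genes, of which 22015 were protein-coding genes of the nuclear genome. All 44 were found in both libraries by joining gene identifiers, and they have 347 annotated transcripts. They were sorted by role into 9 groups: potassium leak channels of the K2P family, other potassium channels, calcium channel pore subunits, calcium channel auxiliary subunits, sodium channel subunits, sodium pump beta subunits, plasma membrane calcium pumps, nicotinic acetylcholine receptor subunits, and 3 further channels.

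The material was total RNA of adrenal glands from male B6CASTF1/J mice, the F1 hybrid of C57BL/6J and CAST/EiJ, aged 14 days, with no treatment named. There was 1 group of 2 libraries, labelled biological replicates 1 and 2, each made from 300 ng of RNA. The labels use the wording 3x Males without explaining it, name 1 donor record, and give the libraries the same pool number in one field and different numbers in another, so whether the SD covers different animals is not known. A single group leaves no contrast between conditions, no test was possible, and no p-value is given.

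The libraries held 32963248 and 36260745 expected counts, of which 17154352 and 19024838 fell on nuclear protein-coding genes and 56005 and 61523 on the 44 channels and pumps. The adrenal markers were at hand in both libraries: the 4 markers of the zona glomerulosa summed to 236 and 219 TPM (a level scaled to transcript length and library size), and the 5 of the medulla to 1305 and 1336 TPM. Markers of brown and white fat, 4 genes, summed to 2718 and 2760 TPM, above the medulla sum in both libraries. The part of fat in the levels of the channels and pumps was not tested. The tissue samples differed in other tissue. The 4 liver markers summed to 236 TPM in replicate 1 and 4138 in replicate 2, and the 5 lymphocyte markers to 53.7 and 7.25 TPM. The 5 neuron markers summed to 58.6 and 32.2 TPM and the 5 markers of smooth muscle and pericytes to 98.1 and 62.8 TPM, and all 10 of these genes were lower in replicate 2. In such bulk tissue, fewer cells of a type and less RNA per cell cannot be told apart.

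As background, a potassium leak holds the membrane of aldosterone-making glomerulosa cells near the potassium equilibrium, and hormones or raised potassium that lower this leak depolarise the cell and open voltage-gated calcium channels. The calcium that enters drives steroid synthesis. In chromaffin cells of the medulla, acetylcholine from the splanchnic nerve opens nicotinic receptors, sodium and calcium channels carry the action potential, calcium triggers the release of catecholamines, and calcium-activated potassium channels end the firing. The sodium pump and the plasma membrane calcium pumps restore the gradients. Mutations in several of these genes are known in human aldosterone-producing tumours.

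Of the 44 members, 31 reached at least 1 TPM in both libraries, against a background of 54.2% of all nuclear protein-coding genes. A mean of at least 1 TPM was reached by 33 members, of at least 5 TPM by 17, of at least 10 TPM by 12 and of at least 20 TPM by 4. No member was without counts in either library. Levels are those of RSEM, a program that shares reads out among transcripts, and a deposited set from kallisto, which does so without alignment, served as the second quantification. The RSEM files also give credibility bounds of each TPM, which cover the error of a single library and not the spread between animals. In 8 members the TPM lay outside its own bounds in at least 1 library: Cacna1a, Cacna1b, Cacna1e, Cacna1g, Cacna1i, Cacna2d2, Kcnq1 and Scn3b. The share of all genes with such a value was not computed, so whether 8 is unusual is not known. Together the members made up 0.172% ± 0.00107 of nuclear protein-coding TPM (SD, n = 2). A single gene, the leak channel Kcnk3, carried 38.1% of the members' TPM in replicate 1 and 39.8% in replicate 2. By role, summed TPM ranged from 202 and 212 for the K2P leak channels to 4.19 and 2.82 for the sodium channel subunits.

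**Figure D1:**
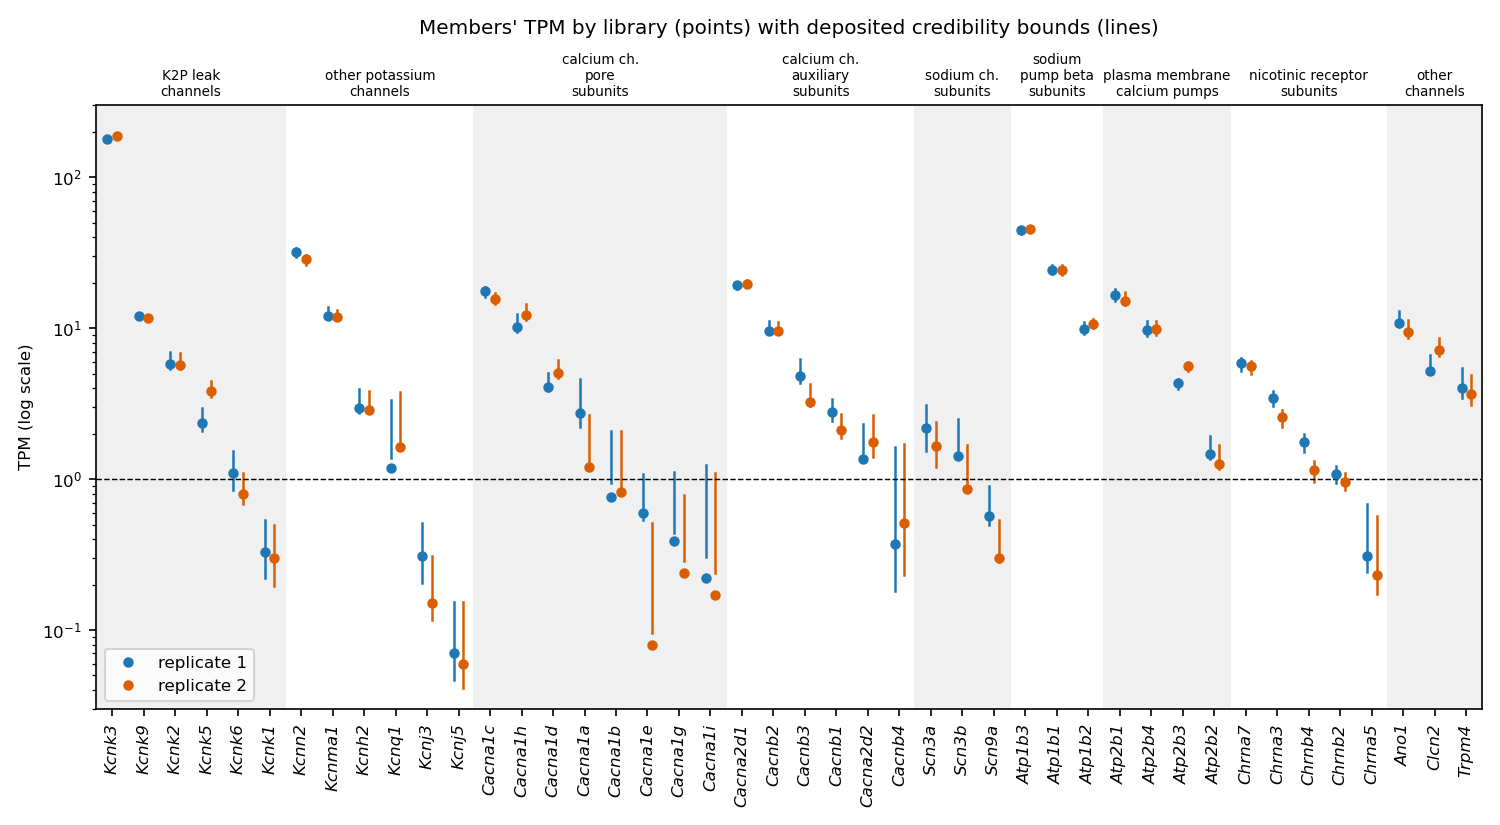
TPM of the 44 members on a log axis, sorted by role, with 1 point for each library, the deposited credibility bounds as lines and a dashed line at 1 TPM. Kcnk3 stands above every other member in both libraries, and 8 members have a point outside its own bounds in at least 1 library. For the latter count no share over all genes was computed.

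Among the K2P leak channels, Kcnk3 stood far above the rest. Kcnk3 encodes an acid-sensitive TASK channel subunit that is known to carry the background potassium current of glomerulosa cells, and it lies at chr5:30588170-30625271 on the plus strand (mm10). It was at 180.4 TPM in replicate 1 and 189.2 in replicate 2, a mean of 184.8 ± 6.22 TPM. Kcnk9, whose TASK subunit can join that of Kcnk3 in one channel, was at 12.1 and 11.8 TPM, a mean of 11.9 ± 0.276 TPM. The libraries thus agreed within 1.05-fold for Kcnk3 and 1.03-fold for Kcnk9. Which cells of the tissue, fat included, gave this RNA was not tested.

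Kcnk3 was 15.5-fold above Kcnk9 on the TPM scale, with a log2 ratio of 3.95 ± 0.08, and 15.4-fold above it by kallisto. The distance in counts was smaller, because Kcnk9 has 1 annotated transcript of great length: 20363 and 23351 expected counts fell on Kcnk3 and 4866 and 5108 on Kcnk9. Kcnk2, a mechanically and lipid-gated TREK channel, was at 5.79 and 5.72 TPM, a mean of 5.76 ± 0.0495 TPM. Kcnk9 and Kcnk2 were apart, as judged throughout by a log2 ratio that kept its sign in both libraries and exceeded 2 SD.

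Kcnk5, an alkaline-activated leak channel, was at 2.34 TPM in replicate 1 and 3.83 in replicate 2. This was the largest rise of a member in replicate 2 among the 33 with a mean of at least 1 TPM, and its credibility bounds, 2.08 to 2.97 and 3.48 to 4.50 TPM, did not meet. Because of this rise, Kcnk2 and Kcnk5 were not apart by RSEM, although they were by kallisto. The liver markers were also higher in replicate 2, and their part in the value of Kcnk5 was not tested. The remaining K2P members, Kcnk6 and Kcnk1, had means of 0.95 and 0.315 TPM. None of the 8 other K2P genes of the genome that were listed reached 1 TPM in both libraries.

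The other potassium channels were led by the calcium-activated pair. Kcnn2, the small-conductance channel that is gated by calcium through calmodulin and shapes the after-hyperpolarisation, was at 31.8 TPM in replicate 1 and 28.7 in replicate 2, a mean of 30.2 ± 2.23 TPM. Kcnma1, the pore of the large-conductance BK channel that opens with calcium and voltage, was at 12.0 and 11.8 TPM, a mean of 11.9 ± 0.134 TPM. Kcnn2 stood 2.53-fold above Kcnma1 and the members were apart.

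Kcnh2, the ERG channel of repolarisation, followed at 2.95 and 2.89 TPM, a mean of 2.92 ± 0.0424 TPM. Kcnq1, a slowly activating voltage-gated channel, was at 1.18 and 1.64 TPM. Its counts, 114 and 127, differed by 1.005-fold when scaled to the library, and its TPM lay below its own bounds in both libraries. The antisense gene Kcnq1ot1 overlaps Kcnq1 and was at 1.16 and 1.04 TPM. The library kit keeps strand, whereas the strand setting of the counting is not known here.

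Both G protein-gated inward rectifiers were under 1 TPM by either quantification. Kcnj5, chosen here after its values were seen because its gene is known for mutations in human aldosterone-producing adenomas, had 10 and 8 expected counts and 0.07 and 0.06 TPM, with bounds of 0.046 to 0.154 TPM in replicate 1. Kallisto placed 0.792 and 0.963 TPM on Kcnj5, on 58.4 and 67.3 estimated counts, so its level differed more between the quantifications than between the libraries. Kcnj3, which pairs with other subunits of this family, had a mean of 0.23 TPM by RSEM. It was above Kcnj5 by RSEM in both libraries and below it by kallisto in both.

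Of the other potassium channel genes that were listed, 2 of 13 inward rectifiers, 4 of 9 calcium- or sodium-activated genes and 7 of 30 voltage-gated genes with their beta subunits reached 1 TPM in both libraries. The highest inward rectifier was Kcnj8, a pore subunit of ATP-sensitive channels found in vessel walls, at 6.41 and 5.54 TPM. Kcnn2 and Kcnma1 were above it in both libraries.

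The BK gene also differed in which exons it used. Kcnma1 has 38 annotated transcripts, the most of any member. Exon use is given as the percent of TPM on transcripts that hold an exon, among the informative ones, which hold or skip it between the same neighbouring exons. A 174-base cassette exon, known as STREX and known in chromaffin cells for its response to stress hormones, was carried by 13.4% of the informative Kcnma1 TPM in replicate 1 and 10.7% in replicate 2, with 15.3% and 16.3% by kallisto. The greater part of the informative RNA lacked it in all 4 estimates. The exon is coding and lies at chr14:23425567-23425740 on the minus strand of GRCm38 (mm10). It is shown because its inserted cysteines are what sets the form apart. Capitals mark the 6 cysteine codons, TGT or TGC, in its open reading frame.
Kcnma1 STREX exon: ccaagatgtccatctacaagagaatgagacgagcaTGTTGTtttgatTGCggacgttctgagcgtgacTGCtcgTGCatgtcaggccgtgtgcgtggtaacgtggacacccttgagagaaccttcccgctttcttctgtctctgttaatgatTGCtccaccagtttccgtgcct

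A second cassette exon of Kcnma1, of 81 bases, was carried by 18.4% and 19.1% by RSEM and by 16.9% and 17.9% by kallisto. Both exons were thus minor forms, and the libraries lay within 3 percentage points for each by RSEM. These shares are estimates over whole transcripts. Counts of reads across the splice junctions were not used here.

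The calcium channel pore subunits were led by an L-type and a T-type gene. Cacna1c, the L-type pore that is also the main cardiac calcium channel, was at 17.6 TPM in replicate 1 and 15.7 in replicate 2, a mean of 16.7 ± 1.36 TPM. Cacna1h, a low-voltage-activated T-type pore known to drive calcium oscillations in glomerulosa cells, was at 10.2 and 12.3 TPM, a mean of 11.2 ± 1.44 TPM. Cacna1c was lower and Cacna1h higher in replicate 2, and they were not apart by RSEM, although Cacna1c was the higher in both. By kallisto they were apart.

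Cacna1d, the L-type pore that opens at more negative voltages, was at 4.09 and 5.02 TPM, a mean of 4.56 ± 0.658 TPM, and lay 2.47-fold below Cacna1h. Among the T-type pores Cacna1h was 36.6-fold above Cacna1g, with a log2 ratio of 5.19 ± 0.68, and the third T-type pore, Cacna1i, had a mean of 0.195 TPM. By kallisto Cacna1h was 30.7-fold above Cacna1g, and by posterior mean TPM 14.3-fold and 24.9-fold in replicates 1 and 2. The TPM of Cacna1g lay below its own bounds in both libraries. Cacna1b, the N-type pore, had a mean of 0.79 TPM on 222 and 165 expected counts.

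Cacna1a, the P/Q-type pore that triggers release at nerve endings, was the 1 member of 33 that differed over 2-fold between the libraries at a mean of at least 1 TPM, against 5.89% of the 12535 genes with that mean (2.52% higher in replicate 1 and 3.37% higher in replicate 2). It was at 2.76 TPM in replicate 1 and 1.21 in replicate 2, a mean of 1.99 ± 1.10 TPM. The bounds of the libraries, 2.20 to 4.59 and 1.28 to 2.68 TPM, met, and the value of replicate 2 lay below its own bounds. The count scaled to library size differed by 1.36-fold, from 227 and 185 expected counts.

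The gap in Cacna1a came with 1 short transcript. Cacna1a-205, typed as a processed transcript, was given 1.09 TPM and 39.4% of the gene in replicate 1 and 0 TPM in replicate 2. Kallisto gave it 0 TPM in both libraries and put the gene at 2.62 and 2.28 TPM. The protein-coding transcript Cacna1a-201 was at 0.64 and 0.57 TPM.

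Cacna1e, the R-type pore, is named here after its values were seen, since it was below the minimum and had the widest gap of all members. It was at 0.60 TPM in replicate 1 and 0.08 in replicate 2, on 157 and 32 expected counts, and at 1.39 and 0.416 TPM by kallisto. It was lower in replicate 2 on each measure. The neuron markers were lower there too, as were those of several other cell types, while the liver markers were higher. The part of any of these cells in this difference was not tested.

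Alternative exons of Cacna1c were tied together by its annotated transcripts. Its 2 highest protein-coding transcripts by RSEM were Cacna1c-216 with 32.7% and 32.9% of the gene's TPM, and Cacna1c-207 with 17.2% and 19.3%. They carry opposite choices at 3 pairs of exons, of 104, 84 and 60 bases, of which a transcript as a rule keeps one, and at a 75-base cassette exon that Cacna1c-216 keeps. The shares are therefore not independent of each other. Levels of whole annotated transcripts cannot show whether distant exons lie in the same RNA. The 75-base exon was in 66.9% and 64.9% of the informative TPM, with 69.5% and 67.4% by kallisto.

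In the 104-base pair, exon A was used in 68.3% and 65.6% of the TPM by RSEM and in 69.5% and 68.8% by kallisto, and exon B in the rest. A and B are working names in genomic order. Alternative exons of this length encode a stretch of the first repeat of L-type pores and are known to differ between smooth muscle and heart. Exon A lies at chr6:118741871-118741974 and exon B at chr6:118742265-118742368, both on the minus strand. They are shown side by side because they encode the same stretch, with 72 of 104 bases the same (69.2%), and capitals mark the 32 bases that differ, position by position.
Cacna1c exon A: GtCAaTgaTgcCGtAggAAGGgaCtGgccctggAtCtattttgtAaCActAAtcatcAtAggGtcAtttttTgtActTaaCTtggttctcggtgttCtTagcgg
Cacna1c exon B: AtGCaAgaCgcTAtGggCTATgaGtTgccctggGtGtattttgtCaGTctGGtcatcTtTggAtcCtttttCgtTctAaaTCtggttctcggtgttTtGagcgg

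Cacna1d has a pair of exons of the same length, and there the choice was less settled. One of them was used in 68.3% of the TPM in replicate 1 and 43.2% in replicate 2 by RSEM, and in 67.8% and 57.4% by kallisto. The spread between the libraries, an SD of 17.7 percentage points by RSEM, was larger than the 1.94 points of the Cacna1c pair. The sum behind it was 2.65 and 2.59 TPM, against 9.56 and 9.41 TPM for Cacna1c.

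Auxiliary subunits help the pores to the membrane and shape their gating. Cacna2d1, the alpha-2-delta subunit that gabapentin binds, led them at 19.4 TPM in replicate 1 and 19.8 in replicate 2, a mean of 19.6 ± 0.269 TPM. Cacnb2, a cytoplasmic beta subunit, was at 9.57 TPM in both libraries, and Cacnb3 at 4.84 and 3.23 TPM, a mean of 4.04 ± 1.14 TPM. The bounds of Cacnb3, 4.37 to 6.21 and 3.07 to 4.30 TPM, did not meet, with the higher value in replicate 1.

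Cacnb1 was at 2.77 and 2.11 TPM, and Cacna2d2 at 1.36 and 1.77 TPM, a mean of 1.57 ± 0.29 TPM. These neighbours were not apart. The order Cacna2d1, Cacnb2, Cacnb3, Cacnb1 was apart at each step and was kept by kallisto. Cacnb4 had a mean of 0.44 TPM on 26 and 30 expected counts. Of 12 other calcium channel genes that were listed, 1 reached 1 TPM in both libraries.

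Sodium channel subunits were low. Scn3a, a neuronal and endocrine sodium channel pore, was at 2.19 TPM in replicate 1 and 1.66 in replicate 2, a mean of 1.93 ± 0.375 TPM. Scn3b, a beta subunit, was at 1.43 and 0.86 TPM, a mean of 1.15 ± 0.403 TPM. Scn9a, a pore known from sensory and sympathetic neurons, had a mean of 0.435 TPM on 151 and 97.3 expected counts. RSEM put Scn3a above Scn3b by a log2 ratio of 0.78 ± 0.24, and kallisto put it below.

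All 3 sodium channel members were lower in replicate 2. Among the 33 members with at least 1 TPM on average, a lower value in replicate 2 was found for 20, against 62.5% of the genes with that mean, so a lower value in replicate 2 was the common case. With TMM scaling, which rests on counts, 14 of the 33 were lower there, against 48.3% of the genes, and the 3 sodium channel members still were. The neuron markers stood at 58.6 and 32.2 TPM, with none of the 5 at 0 in either library. The medulla markers stood at 1305 and 1336 TPM, with 3 of the 5 lower and 2 higher in replicate 2. The part of neurons, of medulla cells or of other cells in these values was not tested. Of 11 other sodium channel genes that were listed, 4 reached 1 TPM in both libraries.

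The sodium pump beta subunits, which carry the catalytic alpha subunit to the membrane, differed by at most 1.08-fold between the libraries. Atp1b3 was at 44.5 TPM in replicate 1 and 45.5 in replicate 2, a mean of 44.955 ± 0.714 TPM. Atp1b1 was at 24.4 and 24.3 TPM, a mean of 24.4 ± 0.0354 TPM, and Atp1b2 at 9.95 and 10.7 TPM, a mean of 10.3 ± 0.537 TPM. Each was apart from the next.

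Atp1b3 was 1.85-fold above Atp1b1 by RSEM and 1.39-fold by kallisto. Fxyd1, a small regulator of the pump, was at 90.7 and 100.8 TPM. Of the 10 other pump genes that were listed, 6 reached 1 TPM in both libraries.

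The plasma membrane calcium pumps push calcium out of the cell with the energy of ATP. Atp2b1, the isoform found in most tissues, was at 16.5 TPM in replicate 1 and 15.1 in replicate 2, a mean of 15.8 ± 0.99 TPM. Atp2b4 was at 9.77 and 9.88 TPM, a mean of 9.83 ± 0.0778 TPM, and Atp2b3 at 4.35 and 5.64 TPM, a mean of 4.995 ± 0.912 TPM. The bounds of Atp2b3, 3.95 to 4.63 and 5.19 to 5.94 TPM, did not meet.

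Atp2b2, best known from hair cells and neurons, was lowest at 1.47 and 1.26 TPM. The order Atp2b1, Atp2b4, Atp2b3, Atp2b2 was apart at each step and was the same by kallisto. For intracellular stores, the endoplasmic reticulum pump Atp2a2 was at 56.5 and 59.3 TPM and the Golgi pump Atp2c1 at 16.4 and 17.2 TPM. Atp2a2 was above each of the 4 plasma membrane pumps, while Atp2c1 was level with Atp2b1 in replicate 1 and above it in replicate 2. Of 7 listed genes of calcium handling, 4 reached 1 TPM in both libraries.

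The pumps took opposite choices at an exon of the C-terminal splice site. Keeping this exon shifts the reading frame and gives the form called a, which is common in excitable cells, and skipping it gives the form called b, with a longer regulatory tail of another sequence. In Atp2b1 the 154-base exon was kept in 14.9% of the informative TPM in replicate 1 and 9.69% in replicate 2, with 15.8% and 6.27% by kallisto. In Atp2b3 the exon of the same length was kept in 84.4% and 100% by RSEM and in 90.7% and 92.8% by kallisto. The 4 estimates for Atp2b1 thus all lay below the 4 for Atp2b3.

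In Atp2b4 the counterpart of 181 bases was kept in 13.0% and 16.0%, with 17.8% and 16.7% by kallisto. The exon of Atp2b1 lies at chr10:99019278-99019431 and that of Atp2b3 at chrX:73559864-73560017, both on the plus strand. They are shown because the same exon is taken by one pump and skipped by the other, with 98 of 154 bases the same (63.6%). Capitals mark the 56 bases that differ, position by position.
Atp2b1 exon: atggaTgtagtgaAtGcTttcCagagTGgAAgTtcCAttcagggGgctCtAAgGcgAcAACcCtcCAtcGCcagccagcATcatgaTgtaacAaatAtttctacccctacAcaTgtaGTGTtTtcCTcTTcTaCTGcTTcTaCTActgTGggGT
Atp2b3 exon: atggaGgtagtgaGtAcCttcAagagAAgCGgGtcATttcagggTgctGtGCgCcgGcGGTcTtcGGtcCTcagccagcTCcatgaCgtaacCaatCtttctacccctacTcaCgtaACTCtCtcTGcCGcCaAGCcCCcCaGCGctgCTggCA

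**Figure D2:**
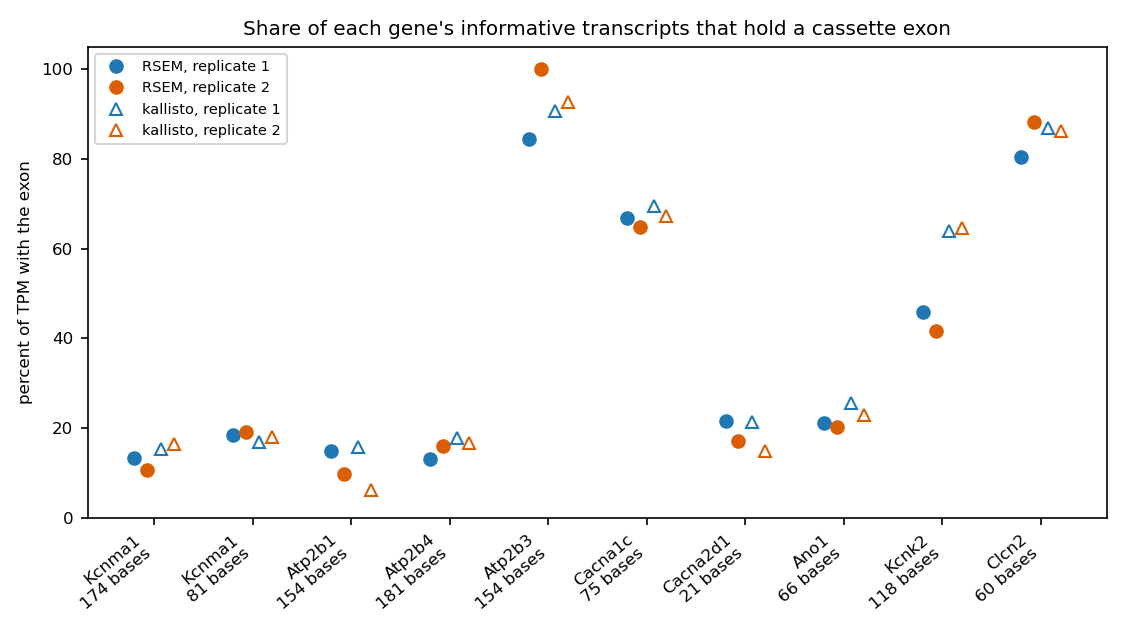
Percent of a gene's informative TPM on transcripts that hold a cassette exon, for 10 exons of 9 members, with filled circles for RSEM and open triangles for kallisto in each library. The exon of Atp2b3 sits between 84.4% and 100% and those of Atp2b1 and Atp2b4 between 6.27% and 17.8%, while the Kcnk2 exon sits at 41.7% and 45.9% by RSEM and at 64.1% and 64.6% by kallisto.

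Nicotinic receptor subunits were present as a homomer-forming subunit and as the parts of ganglion-type receptors. Chrna7, which forms fast calcium-permeable receptors by itself, was at 5.89 TPM in replicate 1 and 5.61 in replicate 2, a mean of 5.75 ± 0.198 TPM. Chrna3, the alpha subunit of the ganglionic receptor that answers the splanchnic nerve, was at 3.47 and 2.58 TPM, a mean of 3.03 ± 0.629 TPM. Its usual partner Chrnb4 was at 1.77 and 1.15 TPM, a mean of 1.46 ± 0.438 TPM.

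Chrna3 was 2.10-fold above Chrnb4, with a log2 ratio of 1.07 ± 0.14, and both were lower in replicate 2. Their bounds did not meet between the libraries: 3.05 to 3.83 and 2.23 to 2.88 TPM for Chrna3, and 1.52 to 1.98 and 0.952 to 1.31 TPM for Chrnb4. Members with separate bounds numbered 5 of 33, against 20.5% of the genes with that mean, and these were Chrna3, Chrnb4 and Cacnb3, higher in replicate 1, and Kcnk5 and Atp2b3, higher in replicate 2. By direction the background was 11.6% and 8.9%. The members' share was thus near the background.

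Chrnb2, the beta subunit common in brain receptors, was at 1.08 and 0.96 TPM. It was not apart from Chrnb4 by RSEM, whereas by kallisto Chrnb4 was 1.47-fold above it and apart. Chrnb2 overlaps Adar, which lies on the opposite strand and was at 7.51 and 5.62 TPM. Chrna5, an accessory subunit, had a mean of 0.27 TPM on 22 and 15 expected counts. Of 11 other nicotinic subunit genes that were listed, 1 reached 1 TPM in both libraries. All 5 nicotinic members were lower in replicate 2, as were 62.5% of the nuclear protein-coding genes that averaged 1 TPM or more, and 4 of 5 were lower with TMM scaling, where Chrna7 was not. Their summed TPM was 12.5 and 10.5. The neuron markers were lower there as well, as were all markers of smooth muscle and pericytes, endothelium, lymphocytes and red cells. The liver markers were all higher, and those of the cortex, medulla, glia and fat went both ways. The part of any of these cells was not tested.

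Chrna5, Chrna3 and Chrnb4 lie next to each other on chromosome 9 within 67900 bases. Chrna5 takes chr9:54980880-55007779 on the plus strand, Chrna3 chr9:55010111-55026562 on the minus strand, and Chrnb4 chr9:55028154-55048779 on the minus strand, with gaps of 2331 and 1591 bases. Chrna5 was far below its neighbours: Chrna3 was 11.2-fold above it by RSEM, 8.01-fold by kallisto and 7.35-fold by posterior mean TPM.

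The 3 further channels lay between 3 and 11 TPM. Ano1, a calcium-activated chloride channel, was at 10.9 TPM in replicate 1 and 9.40 in replicate 2, a mean of 10.1 ± 1.05 TPM. Clcn2, a chloride channel opened by hyperpolarisation that is known for mutations in familial hyperaldosteronism, was at 5.20 and 7.23 TPM, a mean of 6.22 ± 1.44 TPM. Trpm4, a cation channel opened by calcium, was at 4.03 and 3.65 TPM, a mean of 3.84 ± 0.269 TPM.

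Ano1 was the highest and Trpm4 the lowest in both libraries, although no neighbouring pair was apart by RSEM. By kallisto Clcn2 and Trpm4 were apart, and Ano1 and Clcn2 were not. Clcn2 overlaps Polr2h, which lies on the opposite strand and was at 9.13 and 8.94 TPM. A 60-base cassette exon of Clcn2 was kept in 80.6% and 88.3% of the informative TPM, and a 66-base one of Ano1 in 21.2% and 20.3%. Of the listed chloride channel genes, Ano6, a lipid scramblase, was at 18.5 and 15.4 TPM and Ano10 at 15.1 and 13.4 TPM. Trpm7, a channel fused to a kinase, led the listed Trp genes at 13.8 and 13.1 TPM. In all, 8 of 15 listed chloride channel genes, 2 of 13 Trp genes and 1 of 4 pacemaker channel genes of the HCN family reached 1 TPM in both libraries.

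Over all 33 members with a mean of at least 1 TPM, the libraries were about as close at 1.5-fold as over all genes with that mean. Of these members, 29 agreed within 1.5-fold and 20 within 1.2-fold, for which no background was computed. The 4 beyond 1.5-fold were Cacna1a, Scn3b and Chrnb4, higher in replicate 1, where the background was 5.86%, and Kcnk5, higher in replicate 2, where it was 5.09%. The median difference of log2(TPM + 1), replicate 2 minus replicate 1, was -0.02 over the members and -0.06 over all nuclear protein-coding genes with that mean.

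**Figure D3:**
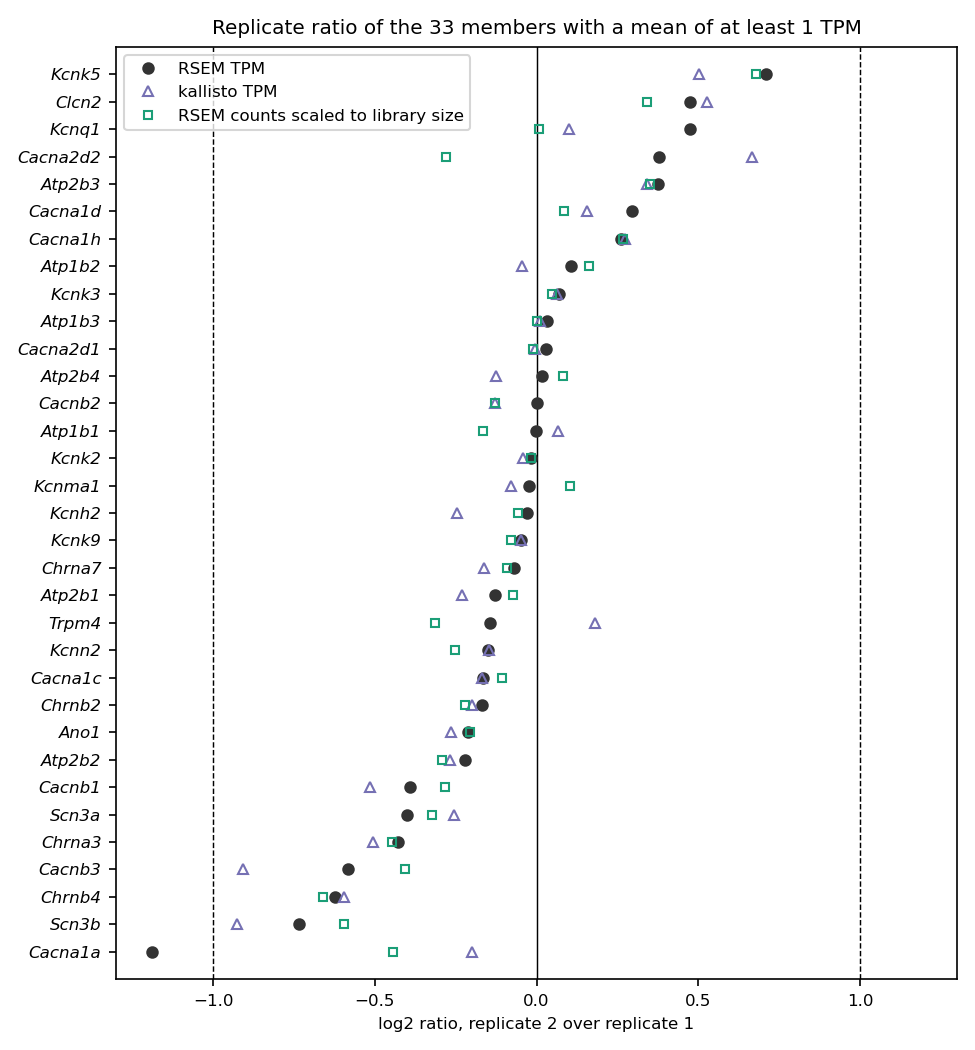
log2 ratio of replicate 2 over replicate 1 for the 33 members with a mean of at least 1 TPM, by RSEM TPM, kallisto TPM and RSEM counts scaled to library size, with dashed lines at 2-fold. Cacna1a passes 2-fold by RSEM TPM alone, and no member passes it by kallisto or by counts.

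The direction of the difference was the same by kallisto for 27 of the 33 members and by scaled counts for 29, with no background computed for either. By kallisto 0 of 35 members with a mean of at least 1 TPM differed over 2-fold, against a background of 7.25%. Of the 143 other genes of these families, 45 had a mean of at least 1 TPM. Of these, 3 differed over 2-fold, against a background of 5.89% in either direction. All 3 were higher in replicate 1, where the background was 2.52%. These were Atp2a3, at 6.80 and 2.91 TPM, and the pump regulators Fxyd7, at 2.85 and 0.98 TPM, and Fxyd2, at 1.67 and 0.82 TPM. Few expected counts lay behind Fxyd7, 53 and 20, and Fxyd2, 32 and 17. The lymphocyte markers were higher in replicate 1 too, and their part in Atp2a3, a pump known from blood cells, was not tested.

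The RNA of several members lay in part on transcripts that do not encode the protein. As a set, however, the members had a median protein-coding share near the background by RSEM. Transcripts per member numbered 8 at the median, against 5 over all genes with that mean. The leading transcript held a median of 53.0% and 57.5% of a member's TPM, against 66.4% and 67.8%. Transcripts typed as protein-coding held a median of 86.2% and 90.6% of a member's TPM, against 89.6% and 90.8%.

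Kcnk2 was the 1 member whose leading transcript was not typed protein-coding in both libraries, against a background of 5.43%. Kcnk2-203, typed as a target of nonsense-mediated decay, held 52.9% of the gene's TPM in replicate 1 and 57.5% in replicate 2, and 35.9% and 35.4% by kallisto, where it led as well. It skips a coding exon of 118 bases. The protein-coding transcripts of Kcnk2 therefore summed to 44.9% and 41.1% by RSEM and to 64.1% and 64.6% by kallisto.

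By RSEM, Trpm4 had 39.4% and 50.3% of its TPM on nonsense-mediated decay transcripts and 31.9% and 40.4% on protein-coding ones. Kallisto reversed this order in both libraries, with 35.1% and 29.8% on decay transcripts and 50.2% and 60.8% on protein-coding ones. Clcn2 had 44.7% and 36.7% on transcripts with a retained intron, and Cacnb2 30.8% and 29.6%. At the other end, Chrna3, Chrnb4, Chrnb2, Kcnk5, Kcnk9, Kcnq1 and Atp2b3 had 100% on protein-coding transcripts in both libraries by RSEM. For Kcnk9 and Chrnb4, with 1 annotated transcript each, the annotation fixed this value. The same holds for Chrna3 and Atp2b3, whose annotated transcripts are all typed protein-coding. Total RNA also holds unspliced precursors, and their share in the retained-intron values was not tested.

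**Figure D4:**
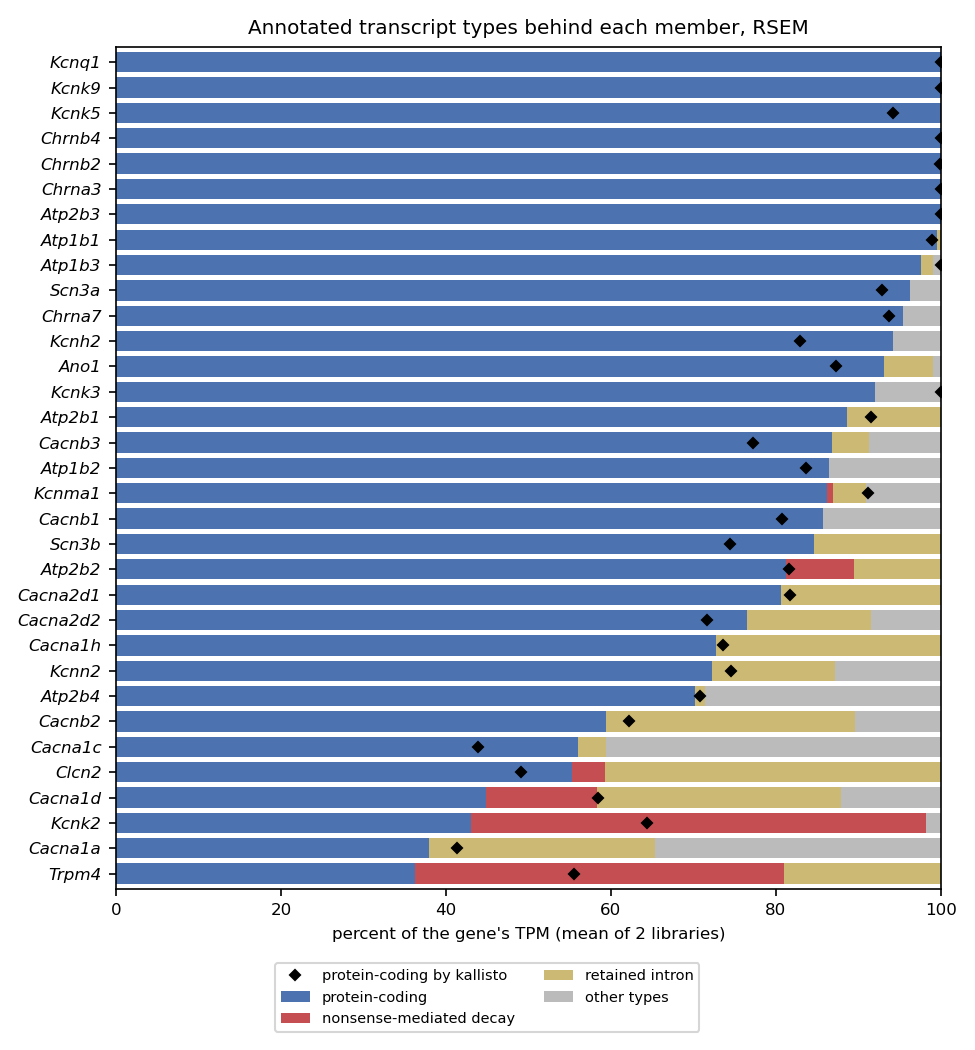
Percent of each member's TPM on annotated transcript types, as the mean of the 2 libraries by RSEM, with the kallisto protein-coding share as black diamonds, for 33 members. Trpm4, Cacna1a, Kcnk2 and Cacna1d have the smallest protein-coding shares, and 7 members have 100%. For Kcnk9, Chrnb4, Chrna3 and Atp2b3 the 100% was fixed by the annotation.

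Which transcript led depended on the quantification for some members. The leading transcript was the same in both libraries by RSEM for 26 of 31 members with several transcripts, against 88.2% of such genes. It differed between RSEM and kallisto in both libraries for 5 of 31, against 18.1%: Scn3a, Cacna1c, Trpm4, Cacna2d2 and Cacna1d. For Cacna1c, kallisto placed 41.4% and 40.3% on the processed transcript Cacna1c-218, to which RSEM gave 22.2% and 25.5%. For Scn3a, RSEM put Scn3a-203 first with 53.0% and 46.4%, and kallisto put Scn3a-202 first with 89.7% and 86.0%.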

How the data were processed

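The 2 adrenal gland libraries of 1 group were used. Expected counts and TPM per gene and transcript were deposited by the authors, made from alignments to mm10 with GENCODE M21, per the file headers and the deposited file notes. Their column names are those of RSEM, and the second set's are those of kallisto; tool versions and the aligner are unstated in the sources used here. Credibility bounds of TPM, a signal with no fixed total, posterior mean TPM and the percent of a gene on each transcript are deposited columns, per the file headers; shares were recomputed here. Kallisto TPM was summed to genes. TPM counts all entries, spike-ins included. Reads of CAST/EiJ alleles were aligned to mm10, and the effect was not measured.

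A member was detected at 1 TPM in both libraries. Folds used a minimum mean of 1 TPM, and medians used log2(TPM + 1), computed here from the deposited values. TMM factors came from edgeR 4.0.16 in R 4.3.3; other steps used Python 3.11.15 and pandas 2.3.3. The fold and TMM steps were tested on simulated data.

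Values of both libraries were given for members with a mean of at least 1 TPM, with SD for the 3 highest of each role, any beyond 2-fold and any whose leading transcript differed between quantifications. Some genes of the wider families are not reported here. Members and lists were chosen with earlier results of these data known, and the exons shown were picked after their values were seen. Cassette exons were coding exons present or absent between the same neighbours; 61 were found, 38 with at least 2 TPM in both libraries. Sequences are from GENCODE M21 transcripts.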

Additional observations from a re-analysis of the deposited data

How the results depend on the processing

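No paired analysis was possible because there is 1 group. The number of members detected in both libraries was 31 and ranged from 31 to 34 under kallisto, posterior mean TPM and the other scalings, was 17 at a minimum of 5 TPM and 35 at 0.5 TPM, and was 31 or 34 with either library alone. The count beyond 2-fold was 1 and became 0 by kallisto, by posterior mean TPM, at a minimum of 5 TPM and by counts scaled to library size (the last chosen after seeing the data), and 4 at 1.5-fold. The count with separate bounds was 5 and became 0 at a minimum of 5 TPM, where fewer members remain. The median difference of log2(TPM + 1) was -0.02 and turned to 0.034 with TMM scaling; its other values ran from -0.12 by kallisto to -0.003 at a minimum of 5 TPM. Members lower in replicate 2, 20 of 33, were 22 when scaled to the nuclear protein-coding total, 14 with TMM and 25 with spike-ins, and the posterior mean moved the Cacna1h over Cacna1g ratio from 36.6-fold to 18.9-fold (both chosen after seeing the data). The log2 ratio of Scn3a over Scn3b turned from 0.78 to -0.35 by kallisto, and the cause was not tested. Kallisto levels moved by more than 1 SD for 32 of 33 members and posterior means for 11; the scale of kallisto was higher for most genes, with a median log2 ratio to RSEM of 0.59 and 0.54 over members and 0.61 and 0.59 over nuclear protein-coding genes. With 2 libraries, an SD is itself imprecise.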
